A study of Mus musculus with 6 samples.

Results

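The spleen of the weanling mouse is described here from the 3 control arrays of a series of 6. The members are the arrays labelled control, one for each of 3 female BALB/c mice killed at postnatal day 21. The other 3 arrays, from females of the same strain and age exposed to 0.1 mM Pb from gestation day 8, were not used, so no comparison between groups is made and no test is given. Whole spleen RNA was hybridised, so each level is an average over all splenic cells. The labels do not say whether the 3 mice shared a litter, or when their RNA was prepared.

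Of 35587 probes, 21615 carried a single gene symbol in the platform annotation. Of these, 21267 lay in array rows 1 to 401 and were kept. They stood for 17848 genes, each read from its brightest probe, and 2906 genes had more than 1 probe. Levels are log2 probe intensities. The brightness of a probe depends on its own sequence and place in the transcript as well as on the RNA, so a dim probe does not show that a transcript was absent, and the order of genes below is an order of probes.

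The spleen filters blood and houses lymphocytes. Its white pulp holds B cell follicles, T cell zones and the stromal cells that guide lymphocytes with chemokines. Its red pulp holds macrophages that take up aged red cells and recycle their iron, and in young mice it also makes red cells, granulocytes and platelets.

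Genes were placed in 4 classes by limits set on each array. A gene was bright when it lay at or above the 90th percentile of genes on all 3 arrays. It was at the reference level when it lay, on all 3 arrays, at or under the 95th percentile of the 501 olfactory receptor probes, whose receptors are known for odour sensing in the nose. Middling genes lay between these limits on every array, and mixed genes crossed a limit between arrays. By these limits 1520 genes were bright, 2715 middling, 1755 mixed and 11858, or 66.4%, at the reference level. Bright genes made up 8.52% of all genes. The bright limit was an intensity of 19.2, 19.8 and 19.7 on control replicates 1, 2 and 3, and the reference limit was 5.42, 4.43 and 5.41. The median gene had a log2 level of 0.77, and the highest single probe intensity was 459, on control replicate 3.

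**Figure D1:**
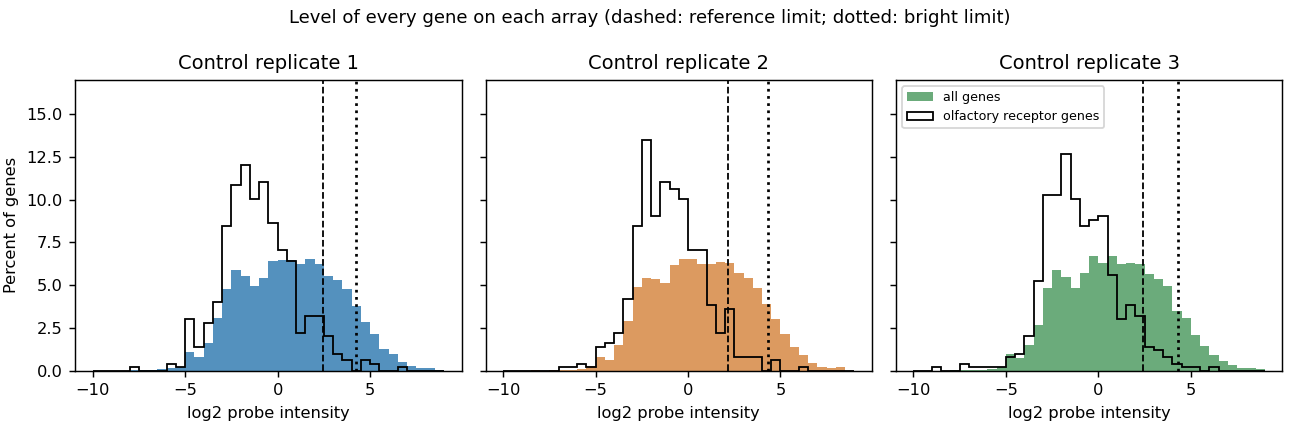
Distribution of log2 probe intensity over 17848 genes on each control array (filled, percent of genes per bin of 0.5) with that of the olfactory receptor genes (black outline). The dashed line is the reference limit and the dotted line the bright limit, and the receptor genes lie to the left of all genes but reach past both limits.

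The reference set was not uniformly dim. Of 498 olfactory receptor genes, 465 were at the reference level, 16 were mixed, 13 middling and 4 bright. The brightest, Olfr692, read 6.67, 6.30 and 6.19 on control replicates 1, 2 and 3. Olfr918 read 5.01, 4.74 and 5.25. Both lay above the bright limit on every array. Olfr328 (mean 4.95) and Olfr812 (4.55) were also bright, Olfr64 (3.98) was mixed, and the pheromone receptor probe Vmn1r71 (3.997) was middling. Of 88 vomeronasal receptor genes 81 were at the reference level and 0 were bright.

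The brightest genes were those of the protein-making machinery and the actin cytoskeleton. Rpl41, a protein of the large ribosomal subunit, was the brightest gene and read 8.77, 8.59 and 8.84. Of the 20 brightest genes 13 encode ribosomal proteins, among them Rpl27a (8.63), Rpl6 (8.53), Rpl4 (8.48), Rps3a1 (8.48), Rps18 (8.47), Rpl35 (8.46), Rpl36a (8.45), Rps15 (8.43), Rps14 (8.38), Rpl22 (8.38) and Rpl37a (8.37), with Rplp0 (8.36) of the ribosomal stalk. The others were Tmsb4x (8.62), which binds actin monomers, Actb (8.58), the prolyl isomerase Ppia (8.504), Txndc11 (8.47), the surface glycoprotein Cd24a (8.43), Oaz1 (8.38), which limits polyamine synthesis, and H2-Aa (8.33), a chain of MHC class II. Between arrays the ranges of these 20 genes ran from 0.11 for Rpl37a and Rpl27a to 0.40 for Cd24a. Of the 100 brightest genes on each array, 80 were shared by all 3 arrays.

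The level of Txndc11 rested on 1 probe. That probe, whose source sequence has no RefSeq mRNA accession, read 8.48, 8.31 and 8.63, whereas the other two Txndc11 probes had means of 2.96 and 2.55.

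Promoter sequences of 4 genes that span these levels are printed from RefSeq (GRCm38.p6) to show how the letters around the start of transcription differ between a universally used gene and genes of specific cells. Each is the 250 bases before the start, 5′ to 3′ on the strand of the gene, with CG pairs in capitals. Rpl41 (chr10:128549169-128549418, minus strand) is the brightest gene. Alas2 (chrX:150547167-150547416, plus strand) encodes the erythroid enzyme that starts haem synthesis and had a mean level of 7.76. Fcrla (chr1:170927584-170927833, minus strand), a B cell gene, had a mean of 5.41. Amy2a5 (chr3:113258700-113258949, minus strand), pancreatic amylase, had a mean of -3.74 and was at the reference level.
Rpl41: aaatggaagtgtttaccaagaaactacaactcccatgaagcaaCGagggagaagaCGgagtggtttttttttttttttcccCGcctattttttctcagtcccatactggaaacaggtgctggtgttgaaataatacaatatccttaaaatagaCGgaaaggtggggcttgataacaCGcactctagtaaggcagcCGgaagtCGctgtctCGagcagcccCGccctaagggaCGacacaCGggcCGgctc
Alas2: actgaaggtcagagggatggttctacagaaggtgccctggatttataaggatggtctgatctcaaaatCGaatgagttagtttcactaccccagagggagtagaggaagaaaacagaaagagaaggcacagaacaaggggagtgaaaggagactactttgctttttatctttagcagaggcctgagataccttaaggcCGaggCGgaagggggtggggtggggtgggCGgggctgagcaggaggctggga
Fcrla: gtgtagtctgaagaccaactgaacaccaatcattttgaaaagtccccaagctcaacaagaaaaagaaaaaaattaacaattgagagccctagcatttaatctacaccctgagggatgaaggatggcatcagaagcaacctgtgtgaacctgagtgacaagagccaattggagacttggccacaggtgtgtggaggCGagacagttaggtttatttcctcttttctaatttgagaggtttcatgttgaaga
Amy2a5: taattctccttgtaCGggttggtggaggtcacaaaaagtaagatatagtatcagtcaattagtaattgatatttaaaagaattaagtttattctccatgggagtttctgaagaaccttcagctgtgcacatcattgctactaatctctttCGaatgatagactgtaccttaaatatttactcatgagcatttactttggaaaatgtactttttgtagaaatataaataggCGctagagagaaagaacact
The Rpl41 stretch held 12 CG pairs, that of Alas2 4, that of Amy2a5 3 and that of Fcrla 1. In Amy2a5 the letters TATAAA began 30 bases before the start. In Alas2 the letters AGATAA, a form of the core that GATA factors can bind, were found, reading both strands. Other forms of that core were not counted.

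Across the 11710 measured genes with 1 promoter entry, the windows from 250 bases before to 50 after the start held a median of 22 CG pairs for bright genes, 21 for middling, 20 for mixed and 12 for reference genes. At least 10 CG pairs were found in 84.9% of bright and 54.4% of reference promoters, against 63.6% of the promoters of all measured genes. Over all 22862 RefSeq promoters of this length with 1 entry the share was 42.9%. Lists differed in this share. It was 97.4% of 38 ribosomal protein genes, 95.3% of 43 respiratory chain genes and 100% of 25 proteasome genes. By contrast, 0 of 7 MHC class II genes and 0 of 20 neutrophil genes with a promoter entry had 10 or more CG pairs. Of all measured genes of these lists, with or without a promoter entry, 8 of 12 and 8 of 22 were bright. The shares with 10 or more CG pairs in T cell and macrophage genes were 8.33% of 12 and 17.6% of 17. Neuronal genes ran the other way, with 84.6% of 13 although most lay at the reference level.

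**Figure D2:**
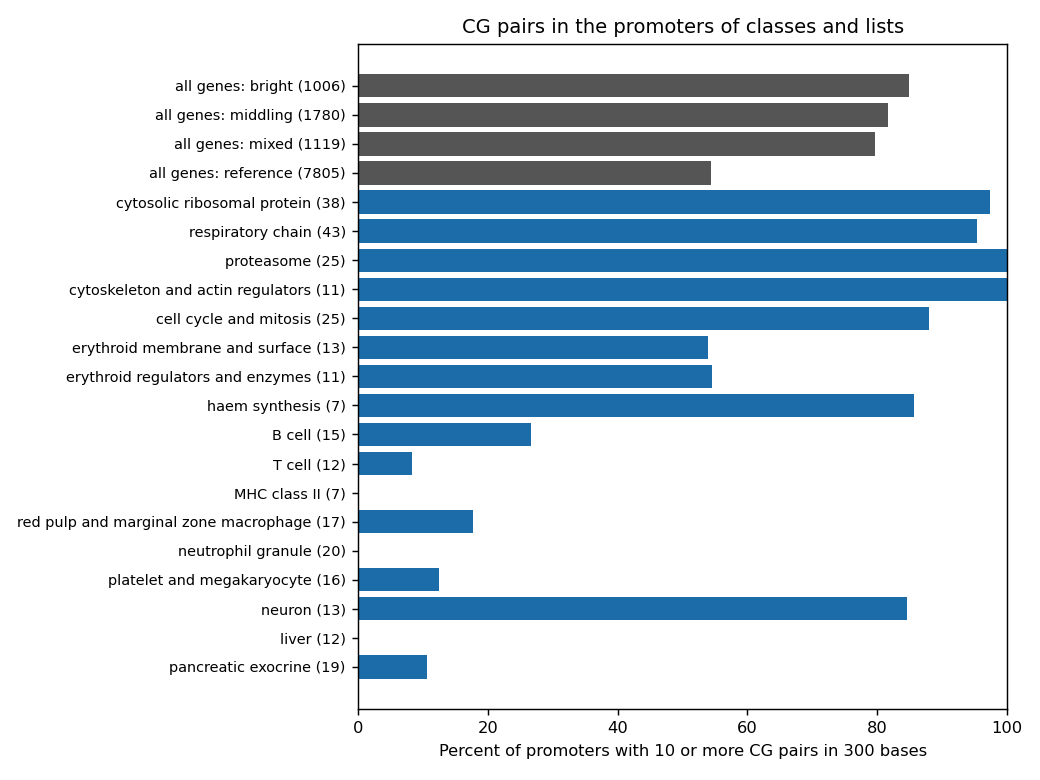
Percent of RefSeq promoters (GRCm38.p6, 300 bases) with 10 or more CG pairs, for all measured genes by class (grey) and for gene lists (blue), with the number of promoters in brackets. Of the lists drawn, the ribosomal, respiratory chain, proteasome and cytoskeleton lists lie at 95.3% or above, and the MHC class II, neutrophil and liver lists at 0.

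Short motifs differed between lists too. The TATA motif was TATAAA on the strand of the gene, starting 20 to 40 bases before the start. It was in 2.29% of bright and 3.33% of reference promoters, against 2.79% of measured and 2.42% of all promoters. It was in 7 of 16 helper cytokine, 6 of 19 pancreatic exocrine and 4 of 11 histone promoters. Other lists had like shares, with 6 of 14 for gut epithelium and 3 of 7 for keratinocytes. Some had none, with 0 of 38 for ribosomal protein genes and 0 of 43 for the respiratory chain. The letters AGATAA on both strands were in 8.71% of measured promoters and 11.5% of all promoters. They were in 4 of 13 promoters of the erythroid membrane list, 5 of 16 of the platelet list and 6 of 14 of the eosinophil, mast cell and basophil list, but in 2 of 11 of the erythroid regulators. Lists of other cells had like shares, with 5 of 14 for gut epithelium, 5 of 19 for the exocrine pancreas and 2 of 7 for MHC class II. GGAAGT, a core that ETS factors can bind, was in 26.0% of measured, 33.3% of bright and 24.3% of all promoters, and in 15 of 20 neutrophil promoters. Other lists also lay above the measured share, with 8 of 16 for platelets, 6 of 12 for T cells and 12 of 25 for the proteasome. Some lay under it, with 1 of 13 for the erythroid membrane list and 1 of 14 for gut epithelium. GGAAGT was read on both strands too. Each motif was counted by itself, so neighbouring matches may share a letter, and a match is a match of letters only.

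Cell programmes were read through 48 gene lists, of which 47 had a measured gene. The medians of 11 lists lay at or above the 90th percentile of all genes, and those of 17 lay under the median of all genes. The number and share of bright genes in a list stand beside 8.52% bright and 66.4% at the reference level over all genes. In RNA of a whole organ, fewer cells of a type and less RNA per cell cannot be told apart.

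**Figure D3:**
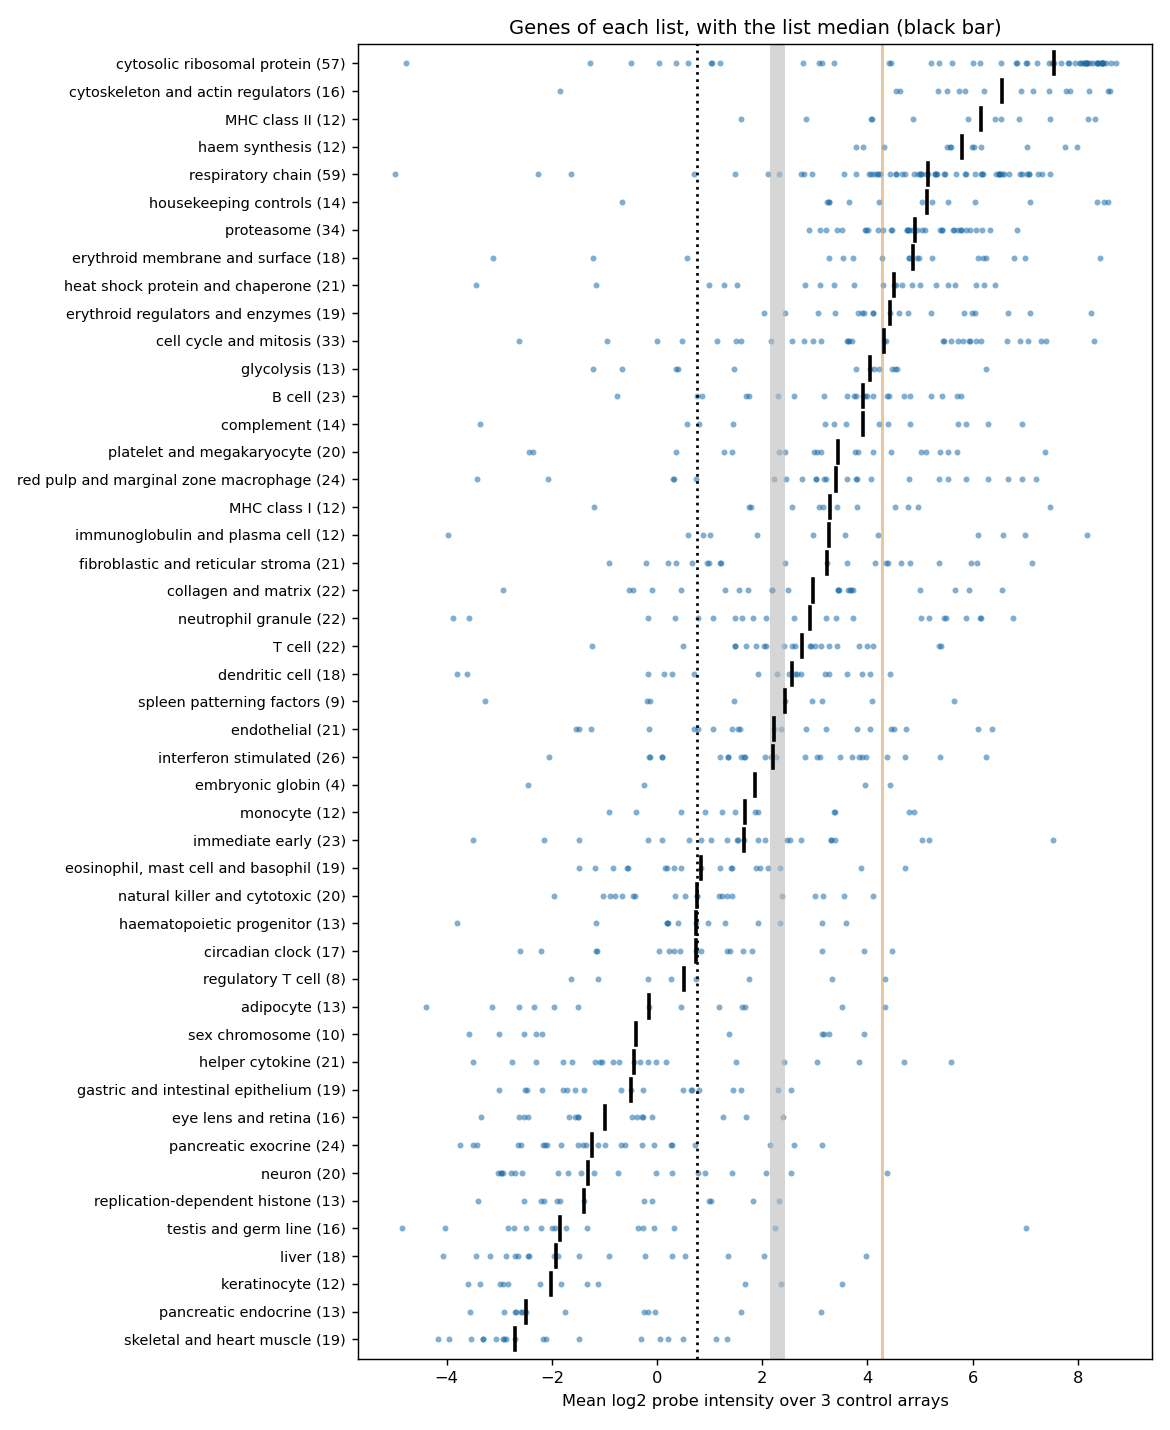
Mean log2 level over the 3 control arrays of each gene (points) in 47 lists, with the list median (black bar) and the number of measured genes in brackets. The grey band spans the reference limits of the 3 arrays, the orange band the bright limits, and the dotted line is the median of all genes at 0.77, so ribosomal, cytoskeletal, MHC class II and haem synthesis genes are seen at the top and genes of muscle, pancreas and skin at the bottom.

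The defining markers of the labelled organ were mostly above the reference. All 6 neutrophil markers were bright or middling, as were 4 of 5 measured B cell markers and 4 of 5 T cell markers. None of 3 marginal zone macrophage, 4 measured erythroid and 5 megakaryocyte markers was at the reference level on all arrays. For red pulp macrophages 1 of 6 was at the reference level, and for endothelium 2 of 4. For reticular stroma 1 of 3 measured markers was at the reference level, and for spleen mesenchyme 1 of 4. Of the natural killer cell markers 4 of 6 were at the reference level, a share near the 66.4% of all genes. Of the markers of other organs, 4 of 4 for each of the pancreatic acinus, the liver and muscle were at the reference level, and so were 2 of 3 measured for fat. The remaining markers of these lists were not analysed here.

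Red cell formation was among the brightest programmes. Of 12 genes of haem synthesis and its mitochondrial transport, 9 were bright, 2 middling, 1 mixed and 0 at the reference level, with a median of 5.79. Alad, which condenses the haem precursor aminolevulinate, read 7.94, 7.76 and 8.24. Alas2 read 8.25, 7.33 and 7.69. The mitochondrial iron importer Slc25a37 read 7.36, 6.999 and 6.71, and Cpox, a later enzyme of the pathway, read 6.30, 6.53 and 5.64. All 4 lay above the bright limit on every array. The lowest members were Ppox (3.79) and Alas1 (3.91), the form of the first enzyme that most other tissues use.

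The red cell membrane list had 11 of 18 genes bright and 3 at the reference level. Cd24a, which B cells and other cells also carry, read 8.56, 8.16 and 8.56. Rhd, a blood group protein, read 6.96, 6.77 and 7.24. The anion exchanger Slc4a1 read 6.87, 6.43 and 7.04. Control replicate 2 had the lowest value for all 3. Kel (6.25), a blood group protein, followed, and the lowest 2 were Slc2a1 (-1.23) and Tmod1 (-3.12).

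Of the erythroid regulators and enzymes, 8 of 19 were bright and 1 was at the reference level. The antioxidant Prdx2 read 8.21, 8.08 and 8.47, and the carbonic anhydrase Car2 read 6.96, 6.99 and 7.33. Ube2l6 (6.67) and catalase, Cat (6.05), came next. The lineage factor Klf1 read 4.21, 4.67 and 4.91, so its first value fell just under the bright limit, and Gata1 read 3.95, 4.02 and 3.82. The lowest were Mxi1 (2.43) and Zfpm1 (2.02), a GATA1 cofactor. Of 4 measured embryonic globin genes, Hbq1b (4.44) and Hbb-y (3.96) were mixed and Hba-x (-0.25) and Hbq1a (-2.46) were at the reference level. The Hbb-y probe may also bind the near-identical transcripts of other beta-like globins, and the adult globins had no probe with a single symbol.

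Genes of dividing cells were bright, apart from the histones. Of 33 cell cycle genes 15 were bright and 7 at the reference level. Mki67, the proliferation antigen, read 8.26, 8.17 and 8.495. Ube2c, an enzyme that tags mitotic cyclins for destruction, read 7.34, 7.18 and 7.68. Birc5 (7.29), a protein of the mitotic spindle, and Cdk1 (7.06), the kinase that drives mitosis, followed. Rrm1, a subunit of the enzyme that makes deoxynucleotides, had a mean of -2.62, and Cenpe, a kinetochore motor, -0.95. Of 13 replication-dependent histone genes 12 were at the reference level and 1 was mixed. The highest were the linker histones H1f4 (2.31) and H1f2 (1.82), then H3c4 (1.02) and H1f1 (1.00), and the lowest H4c8 (-2.53) and H2ac8 (-3.41). These histone transcripts end without a poly(A) tail, and the labelling protocol's priming is not given beyond the maker's standard method. Its part in their level was not tested.

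Antigen presentation by MHC class II was bright. Of 12 genes 8 were bright, 2 middling, 1 mixed and 1 at the reference level, with a median of 6.17. H2-Aa read 8.23, 8.39 and 8.38, and its partner chain H2-Ab1 read 8.14, 8.19 and 8.26. Ctss, the protease that trims the invariant chain, read 7.54, 7.501 and 7.38. H2-Eb1 read 6.92, 6.80 and 6.91, and the invariant chain itself, Cd74, had a mean of 6.54. The median SD of this list was 0.12, against 0.16 over the bright class. The lowest were H2-DMb2 (2.82) and H2-Ob (1.60), which act in peptide loading. In the class I list 3 of 12 were bright, with a median of 3.28. H2-D1 read 7.36, 7.27 and 7.77, H2-M3 had a mean of 4.97, the immunoproteasome subunit Psmb8 4.76 and the peptide transporter subunit Tap2 4.52. Tap1 (1.75) and H2-K1 (-1.21) were the lowest, and the class I genes are near-identical copies, so their probes can share transcripts.

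B cell genes were mostly above the reference. Of 23 B cell genes 6 were bright and 5 at the reference level, with a median of 3.91. Ms4a1 (CD20) read 5.62, 5.73 and 5.99. Cd79b, a signalling chain of the B cell receptor, read 5.48, 5.89 and 5.76. Fcrla, whose promoter is printed above, read 5.29, 5.50 and 5.45, and the tetraspanin Cd37 had a mean of 5.20. The lowest were Cxcr5 (0.75), the receptor that guides B cells to follicles, and Pax5 (-0.75), the factor that fixes B cell identity. Pax5 was thus at the reference level beside bright genes of the same cells.

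Immunoglobulin M was among the brightest. The Ighm probe kept read 8.36, 8.09 and 8.05. Ighm had 5 probes, whose means were 8.17, 7.30, 7.23, -0.76 and -2.51. Of the plasma cell list, Jchain (7.003), which joins IgM chains, Mzb1 (6.57), a chaperone for them, and Iglv1 (6.11) were also bright. Igha (0.58) and Tnfrsf17 (-3.97), a receptor of plasma cells, were the lowest. Of 27 immunoglobulin or T cell receptor V segments 5 were bright, 3 middling, 3 mixed and 16 at the reference level. The bright, middling and mixed ones were all immunoglobulin segments, and every T cell receptor segment was at the reference level. Igkv4-68 read 6.81, 6.91 and 7.36, the highest V segment. Igkv19-93 read 5.08, 4.51 and 3.58, so 1 segment had a range of 1.502 between animals. V segments resemble each other, and their probes may share transcripts.

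T cell genes were spread over the classes. Of 22 genes 2 were bright, 8 middling, 5 mixed and 7 at the reference level, with a median of 2.76. The adhesion receptor Cd2 read 5.33, 5.56 and 5.29, and Cd3g, a CD3 subunit, read 5.26, 5.55 and 5.24. Cd3d (4.11) and Thy1 (3.99) followed. The co-receptors Cd8a and Cd4 had means of 3.43 and 3.00. Cd3e, another CD3 subunit, had a mean of 1.47 and was at the reference level. The lowest 2 were Trat1 (0.49) and Ubash3a (-1.25). Of 8 genes of regulatory T cells 6 were at the reference level. Tgfb1 (4.34) and Tnfrsf18 (3.32) were the highest, Foxp3, the defining factor, read 0.58, 0.65 and 0.98, and Il2ra (-1.12) and Ctla4 (-1.64) were the lowest.

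Natural killer and cytotoxic genes were mostly at the reference level. Of 20, 0 were bright and 15 were at the reference level, and the list median of 0.76 lay at that of all genes. Il2rb, a receptor chain for interleukins 2 and 15, read 4.19, 3.87 and 4.29. The granule protein Nkg7 read 3.27, 3.69 and 3.68, and granzyme A, Gzma, read 2.71, 3.76 and 2.99. Serpinb9 (2.99), which shields cells from granzyme B, was also middling. Gzmk (-1.03) and Fasl (-1.96) were the lowest. Dendritic cell genes gave 0 of 18 bright, 7 middling and 7 at the reference level. Bcl11a (4.42), Cd86 (4.05), Bst2 (3.89) and the chemokine receptor Xcr1 (3.61) were the highest, and Ccl17 (-3.61) and Flt3 (-3.80) the lowest.

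In the macrophage list 8 of 24 genes were bright and 5 at the reference level, with a median of 3.41. Lyz2, lysozyme, read 7.19, 7.44 and 7.02. The complement chain C1qa read 7.35, 6.93 and 6.54, and C1qc had a mean of 6.28. The protease Ctsd read 6.70, 6.67 and 6.67. Of genes of iron handling, Hmox1, which breaks down haem, had a mean of 5.54 and the iron exporter Slc40a1 3.78. The marginal zone receptor Marco read 5.30, 5.38 and 5.42. Spic, the factor of red pulp macrophages, read 3.01, 2.21 and 2.11 and was mixed, and Adgre1 (F4/80) had a mean of 0.74. Timd4 (-2.07) and the Kupffer cell gene Clec4f (-3.42) were the lowest.

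Neutrophil granule genes ranged from bright to the reference level. Of 22 genes 8 were bright, 4 middling and 10 at the reference level. Ngp, a granule protein of maturing neutrophils, read 7.01, 6.58 and 6.71. The calprotectin subunits S100a8 and S100a9 read 6.31, 6.03 and 6.12, and 6.12, 6.04 and 6.27. Anxa1 had a mean of 5.88. Mpo and Elane, made in early granulocyte precursors, had means of 5.02 and 5.16. Cxcr2 (-3.58), the chemokine receptor of mature neutrophils, and Cebpe (-3.89), a factor of granule formation, were the lowest. Of 12 monocyte genes 2 were bright, Plac8 (4.89) and Treml4 (4.79), and 7 at the reference level. F13a1 (3.39) and Ms4a6c (3.36) followed, and Ace (-0.39) and Ly6c1 (-0.92) were the lowest.

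Platelet and megakaryocyte genes gave 6 of 20 bright and 5 at the reference level. The platelet chemokine Ppbp read 7.53, 7.60 and 6.99. Pf4, another platelet chemokine, read 5.91, 5.96 and 4.74 and was lowest on control replicate 3. Plek (5.71) and the tetraspanin Cd9 (5.38) were also bright. The lowest were Thbs1 (-2.36) and the collagen receptor Gp6 (-2.43). Of 19 eosinophil, mast cell and basophil genes 16 were at the reference level. The mast cell protease Tpsb2 (4.71) was bright, and Mcpt4 (3.88), Tpsab1 (2.35) and Siglecf (2.11) came next. Of 13 progenitor genes 10 were at the reference level, with Cd93 (3.60), Meis1 (3.13), Mecom (2.33) and Kit (1.92) the highest.

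In the list of fibroblastic and reticular stroma 3 chemokines were among the bright genes. Ccl19, which draws T cells and dendritic cells, read 6.81, 7.13 and 7.46. Cxcl13, which draws B cells, read 5.88, 5.96 and 6.06. Mfge8 (6.07) and Cxcl12 (5.35) were also bright, as were 6 of 21 genes of the list, while 9 were at the reference level, the lowest being Ltbr (-0.22) and Lum (-0.91). Of matrix genes Sparc (6.55), Col3a1 (5.93), Bgn (5.67) and Col14a1 (4.998) were bright, and 8 of 22 were at the reference level. Of endothelial genes the sinus scavenger receptor Stab2 read 6.38, 6.44 and 6.28. Plvap (6.11), Esam (4.73) and Kdr (4.50) were the other bright members of 21, and 10 were at the reference level, among them Cdh5 (-1.48) and Lyve1 (-1.53).

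Factors that pattern the spleen in the embryo were still above the reference in part. Tcf21 read 5.62, 5.44 and 5.85 and was bright. Nr2f2 (4.09) was mixed and Meis1 (3.13) middling, and Tlx1, needed for a spleen to form, read 2.87, 3.02 and 2.96. Nkx2-5 read 2.31, 2.44 and 2.55. Wt1 (-0.18) and Hoxa11 (-3.27) were the lowest, and 4 of 9 were at the reference level.

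Housekeeping lists held many bright genes and also some at the reference level. Of 57 cytosolic ribosomal protein genes 43 were bright and 9 at the reference level, with a median of 7.55 and the lowest at -1.27 for Rps2 and -4.78 for Rpl3. The cytoskeleton list had 14 of 16 bright, led by Tmsb4x, Actb, Actg1 (8.22) and the actin-binding Pfn1 (7.86). Only Lcp1 (-1.84) of that list was at the reference level. The respiratory chain gave 40 of 59 bright and 6 at the reference level, with Cox5b (7.46), Atp5e (7.32), Cox6a1 (7.25) and Atp5o (7.07) on top and Cycs (-2.26) and Ndufs1 (-4.99) at the bottom. The proteasome gave 23 of 34 bright and 0 at the reference level, from Psmd1 (6.84), Psmb2 (6.33), Psmb1 (6.18) and Psmd3 (6.06) down to Psmc6 (3.10) and Psmd11 (2.89). Chaperones gave 10 of 21 bright and 5 at the reference level. Of 13 glycolysis genes 3 were bright, led by Ldha (6.25), and 5 were at the reference level. Gapdh, often used as a control gene, read -1.75, -0.62 and 0.34 on its brighter probe and lay at the reference level. That probe lay in array row 240, where control replicate 3 was higher than the mean of the 3 arrays by a median of 0.54. Neither of the 2 Gapdh probes had a RefSeq mRNA accession. Hspa8 had a mean of -3.44.

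Gene families were also read by the stem of the symbol. Of 82 symbol stems with at least 20 genes, Rpl (27 of 39 bright), Rps (15 of 27), Cox (12 of 22) and Eif (22 of 48) had the highest medians. Vmn (81 of 88 at the reference level), Cfap of cilia (23 of 25) and Cdh of cadherins (19 of 20) had the lowest. No bright gene was found in 13 families. Of 16262 protein-coding genes 9.16% were bright and of 1378 long noncoding RNA genes 1.16%, with 91.4% of the latter at the reference level.

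Programmes of other organs were dim. Of 168 distinct genes in 10 such lists, 152 were at the reference level, 8 mixed, 7 middling and 1 bright. The bright one was Odf1, a protein of the sperm tail, which read 7.19, 6.44 and 7.42 on its 1 probe. The next testis gene, Akap4, had a mean of 2.24. In the neuron list Dbh, the enzyme that makes noradrenaline, read 4.46, 4.67 and 3.99, followed by Npy (2.55). In the adipocyte list Cidec (4.34), a lipid droplet protein, and Fabp4 (3.51), which macrophages and capillaries also make, were highest, with Adipoq at 1.68. In the liver list Trf (3.98), transferrin, was highest and Hp had a mean of 2.03. Lor (3.52) led the keratinocyte list, Cela1 (3.13) and Clps (2.60) the pancreatic exocrine list, Abcc8 (3.12) the endocrine list, Tff1 (2.55) the gut list and Pde6a (2.39) the eye list. All 19 muscle genes were at the reference level, the highest being Ryr1 (1.34).

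The sex chromosome genes were read against the label female. Xist, the X inactivation RNA, read 3.74, 2.26 and 3.54 on its brighter probe, and a second probe had a mean of -3.95. Of 7 Y-linked genes 6 were at the reference level on all arrays, namely Usp9y (1.37), Sry (-2.19), Zfy1 (-2.29), Eif2s3y (-2.53), Uty (-3.01) and Zfy2 (-3.57). The seventh, Kdm5d, read 3.99, 4.12 and 3.69. Its X-linked relative Kdm5c had a mean of 3.26. Whether the Kdm5d probe binds other transcripts was not tested.

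The 3 arrays followed each other closely across probes. Pearson's r was 0.950 to 0.954 and Spearman's rho 0.967 to 0.972 over the 21267 probes, which are not independent replicates. The agreement was not a property of bright genes alone. Among genes at the reference level r was 0.861 to 0.874, and among the olfactory receptor probes 0.849 to 0.891. The order of probes below the reference limit thus recurred between arrays. In the last array rows, left out by the rule, the 348 probes with 1 symbol had r of 0.0960 to 0.186 between the same arrays.

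The spread between arrays was widest for dim genes. The median SD over genes was 0.26 (n = 3 arrays). In the lowest 10% of genes by mean level it was 0.94, in the next 10% 0.57 and in those after them 0.44. In the higher groups of 10% it lay between 0.24 and 0.17. The highest and lowest array differed by less than 1, a factor under 2, in 98.2% of bright, 97.8% of middling, 86.4% of mixed and 70.9% of reference genes. Among bright genes the closest 8 were Surf4, Pgls, Map4k1, Atp6ap2, Rps13, D030056L22Rik, Dcaf11 and Eprs, with ranges from 0.0077 to 0.025. Dcaf11 for example read 7.57, 7.57 and 7.55.

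**Figure D4:**
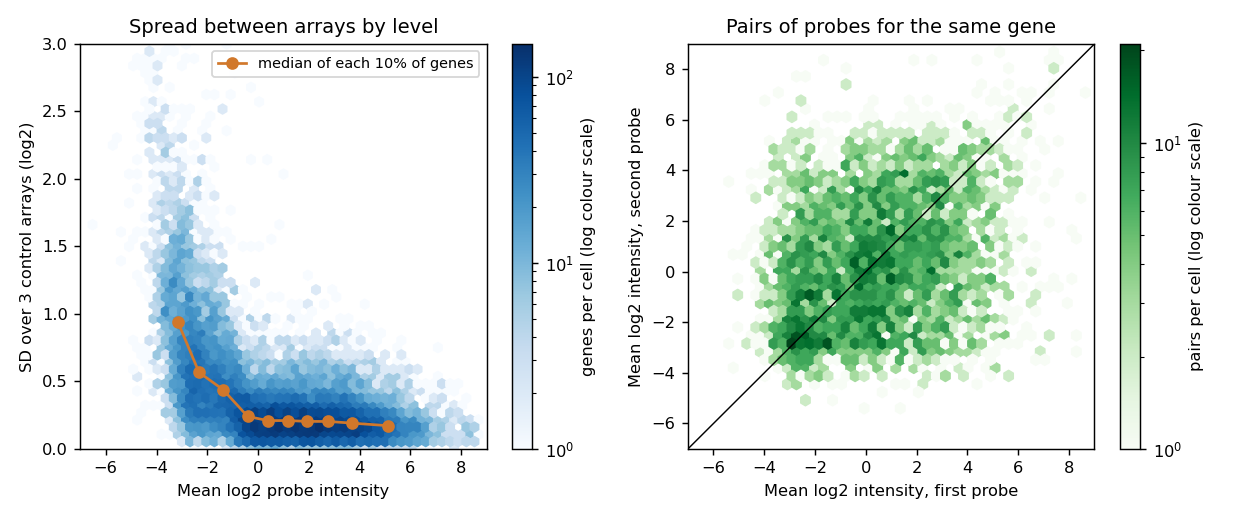
Left, SD over the 3 control arrays against mean log2 level for 17848 genes (colour, genes per cell on a log scale) with the median of each 10% of genes in orange, which falls from 0.94 to 0.17. Right, mean log2 levels of the members of each pair of probes for the same gene (4057 pairs, colour on a log scale) with the line of equality, from which the pairs scatter widely.

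Probes for the same gene agreed far less than arrays did. Over 4057 pairs in 2906 genes, r between probe means was 0.23 and the median difference was 2.03 on the log2 scale. Where both probes were listed with a RefSeq mRNA accession, 662 pairs gave r = 0.53 and a median difference of 1.72. In 1203 pairs 1 probe lay above the reference limit on all arrays and the other did not, against 295 pairs with both above. Actg1 had probe means of 8.22, 1.81, 1.47 and -1.59, Rpl35 of 8.46 and -3.10, and Psmc4 of 5.63 and -1.87. The kept probes with a RefSeq mRNA accession had a median of 1.06 and 63.4% at the reference level. The 776 kept probes with accessions of the prefix BB had a median of -1.51 and 93.0% at the reference level. For single genes at the reference level, such as Cd3e, Pax5, Rpl3 or Gapdh, the value given is that of the brightest probe and no more.

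Part of the spread followed position on the array. In runs of 20 array rows the median deviation of control replicate 3 from the mean of the 3 arrays ran from -0.28 to 0.21, that of control replicate 1 from -0.13 to 0.19 and that of control replicate 2 from -0.09 to 0.20. The last row, 401, was left as a run of 1 row, in which control replicate 3 deviated by -0.40. In rows 237 to 242 control replicate 3 was higher by 0.31 to 0.64. Removing the medians of these runs (below, the row medians) lowered the median SD from 0.26 to 0.22.

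The 15 genes with the largest range among those above the reference limit on every array bear on this. Neat1, the scaffold RNA of nuclear paraspeckles, read 5.26, 4.61 and 3.17. Gadd45a, a stress response gene, read 5.73, 4.75 and 3.99. Coq9, which acts in ubiquinone synthesis, read 2.52, 4.37 and 2.91, and the mitochondrial ribosomal protein gene Mrps24 read 4.04, 5.60 and 4.56. The others were Mrpl18, Limd1, Josd2, Lamp1, Atp6v1g1, Chrna3, Ppp1r1b, Zfp651, Gm2115, Pkp4 and C730029A08Rik, with ranges from 1.52 to 1.80. Of the 15, 7 lay in array rows 221 to 260, which hold 8.78% of genes above the reference, and 6 in rows 1 to 20 or 361 to 401, which hold 11.6%. After removal of the row medians the ranges of Neat1 and Gadd45a were 1.62 and 1.40, so most of each remained. The removal by runs of 20 rows is too coarse for the 6 rows named above, and the range of Chrna3, in row 237, went from 1.66 to 1.81.

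The 3 animals were also compared by programme. Each value is the median over a list of the deviation from the mean of the 3 arrays, for control replicates 1, 2 and 3, so a rise on 1 array lowers the others. Each animal had 1 array, and animal, RNA preparation and array cannot be told apart. The deviations over all genes were -0.02, 0.01 and 0.04.

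Neutrophil genes were higher on control replicate 1, with deviations of 0.16, -0.11 and -0.08, and of 0.21, -0.06 and -0.17 once the row medians were removed. Of 22 genes 17 had their highest value there, and 19 after removal of the row medians, against 27.8% and 33.7% of all genes. Camp, an antimicrobial granule peptide, read 6.02, 5.30 and 5.03. Mpo read 5.51, 4.84 and 4.70, and Elane 5.57, 5.02 and 4.89. In these 3 genes control replicate 1 was the highest. Monocyte genes deviated by 0.17, -0.13 and -0.13, with 8 of 12 highest on control replicate 1 and 0 lowest there. Platelet genes deviated by 0.16, -0.03 and -0.13, and the sign on control replicate 2 rests on a deviation near 0. Of 20 platelet genes 9 had their highest value on control replicate 1, and 11 after removal of the row medians. Ppbp and Pf4 were highest on control replicate 2. Interferon-stimulated genes deviated by 0.11, -0.13 and 0.06, and by 0.17, -0.09 and -0.04 once the row medians were removed, so the sign on control replicate 3 turned. Of the 26 interferon-stimulated genes 12 had their highest value on control replicate 1, 6 on control replicate 2 and 8 on control replicate 3. After removal of the row medians 17 had it on control replicate 1. The shares of all genes highest there were 27.8% and 33.7%. Irf7, a master factor of that response, read 6.04, 5.11 and 4.996, and Rsad2, an antiviral enzyme, 5.02, 4.07 and 4.04.

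T cell genes were higher on control replicate 2, with deviations of -0.08, 0.17 and -0.08. Of 22 genes 17 had their highest value there, before and after removal of the row medians, against 31.6% and 34.3% of all genes. Cd8a read 3.16, 3.76 and 3.36, Cd4 2.65, 3.24 and 3.11, and Thy1 3.78, 4.25 and 3.94. Natural killer and cytotoxic genes deviated by -0.16, 0.14 and -0.01, with 12 of 20 highest on control replicate 2. Respiratory chain genes, a housekeeping list, leaned the same way. Of 59 genes 31 were highest on control replicate 2, and 30 after removal of the row medians, with deviations of -0.07, 0.10 and -0.02. B cell genes deviated by -0.12, 0.05 and 0.05, with 15 of 23 lowest on control replicate 1, against 37.3% of all genes. Once the row medians were removed these deviations were -0.05, 0.07 and -0.01, so the value on control replicate 1 shrank and that on control replicate 3 changed sign. Proteasome genes, which mark no cell type, were also lowest there in 26 of 34 cases, with deviations of -0.15, 0.05 and 0.06. After removal of the row medians 24 of 34 were lowest there, against 34.3% of all genes, and the deviation on control replicate 1 was -0.07.

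Red cell membrane genes were lower on control replicate 2, with deviations of 0.10, -0.19 and 0.12, and of 0.11, -0.18 and 0.07 once the row medians were removed. Of 18 genes 11 had their lowest value there, and 12 after removal of the row medians, against 31.5% and 33.2% of all genes. Cell cycle genes were higher on control replicate 3, with deviations of -0.04, -0.12 and 0.19, which became 0.01, -0.08 and 0.08 once the row medians were removed. For this list, as for others with both values given above, the removal moved a value by more than 1.5 times.

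Deviations beyond 0.3 were seen in 2 lists. Embryonic globin genes, 4 in number, deviated by 0.16, -0.40 and 0.18. Hbq1a read -1.85, -3.29 and -2.23, Hbq1b 4.74, 4.11 and 4.47, and Hbb-y 3.98, 3.49 and 4.41, with the lowest value on control replicate 2 each time, and Hba-x read -0.39, -0.25 and -0.12. The sex chromosome list deviated by 0.32 on control replicate 1, where 8 of 10 genes had their highest value. In that list the largest deviations there came from Xist and the reference-level Y-linked genes Zfy2, Zfy1 and Uty.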

How the data were processed

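Total RNA of whole spleen from 3 control mice was labelled with Cy5 and read on 1-colour CodeLink mouse whole genome arrays, per the labels. The deposited values are linear probe intensities with array medians of 0.985 to 0.987, so they appear to have been divided by a median. The authors' background correction and normalisation are not stated in any source used here. Precision is bounded by having 3 arrays, and detection calls were not used.

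Intensities at or under 0 (118 to 132 per array) were set to the 1st percentile of that array's positive values before log2 was taken. The deposited values of Pb arrays were not used. Array rows were read from the probe identifiers, and the row correction removes the median deviation of each array in runs of 20 rows. Python 3.11.15, numpy 2.4.6 and pandas 2.3.3 were used. The median SD and the row correction were checked on simulated data, and the class limits and correlations were not. The simulated noise was the same for every probe and the simulated position effect was smooth over rows. The check thus did not cover a spread that changes with level or an abrupt run of rows. No test was made, since there is 1 group.

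The members and lists were chosen with earlier results of these data known. Genes named are the 20 brightest, up to 4 highest and 2 lowest of a list (4 highest for other organs), the 15 largest ranges, the 8 smallest among bright genes, Xist and Y-linked genes, the 6 highest receptors, up to 4 members of lists that deviate by more than 0.3, and defining markers. Others were named after their values were seen. The entrez identifiers of 21140 probes matched RefSeq, and 0 symbols changed. Alternatives covered the floor, pseudocount, scaling, row correction, probes per gene, class limits and each array left out.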

Additional observations from a re-analysis of the deposited data

How the results depend on the processing

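No paired analysis was possible because 1 group was described and no groups were compared. Of 115 summary values under alternatives, 95 stayed within their limits. So did 403 of 517 list medians, 8568 of 9861 levels of named genes and 210 of 210 deviations, of 7 lists. For list medians, gene levels and deviations the limit was the spread between replicates. For a deviation that spread can be as large as the deviation itself. A deviation could thus shrink or turn sign and still count, so the 210 of 210 does not show stability. Among the list deviations given above, row correction turned the sign of 3 small ones. That of cell cycle genes on control replicate 1 went from -0.04 to 0.01. On control replicate 3 that of B cell genes went from 0.05 to -0.01 and that of interferon-stimulated genes from 0.06 to -0.04. Signs also turned in lists whose deviations are not given above, such as ribosomal protein genes on control replicate 3 (0.079 to -0.0079). Class counts moved with the limits: 3131 genes were bright and 841 middling with the bright limit at the 80th percentile, 730 were bright at the 95th, and 0 were middling with the reference at the 99th percentile of the olfactory receptors, which on control replicate 1 (4.64) lies above the bright limit (4.26). With 1 array left out, 1093 to 1212 genes were mixed. The mean r between arrays of 0.952 became 0.981 with log2(value + 0.25), 0.954 without values at or under 0, 0.941 over all array rows, 0.960 over RefSeq mRNA probes alone (chosen after seeing the data), and 0.950 to 0.954 with 1 array left out. The median SD of 0.259 became 0.204 with log2(value + 0.25), 0.218 after row correction and 0.191 to 0.231 with 1 array left out. Of the 2 lists that deviated beyond 0.3, 1 did so with log2(value + 0.25) and 1 with the mean of all probes, and 0 to 1 did with 1 array left out (0 without control replicate 2). The cause was not tested. Scaling by the 75th percentile shifted the median gene from 0.77 to -1.74, so levels have meaning only against the limits of their array.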

Other observations

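Genes of cell state gave further values. Of 23 immediate early genes 3 were bright and 13 at the reference level. Klf2, a factor of resting lymphocytes and endothelium, read 7.49, 7.49 and 7.62 on control replicates 1, 2 and 3, Nfkbia had a mean of 5.18 and Dusp2 5.04, whereas Fos (-0.17), Atf3 (-2.16) and Rgs1 (-3.51) were at the reference level. Of 26 interferon-stimulated genes 3 were bright, Isg20 (6.25), Irf7 (5.38) and Ifi27 (4.71), and 12 at the reference level. Of 21 helper cytokine genes 16 were at the reference level. Ltb, a lymphotoxin chain of resting lymphocytes, read 5.09, 5.77 and 5.88 and Il18 had a mean of 4.69, while Il4 (-1.78), Il17a (-2.75) and Il17f (-3.51) were among the lowest. Between them lay Il5 (3.83), Il12a (3.05) and Il3 (2.40). In the circadian list Nr1d1 (4.47) was bright and 14 of 17 genes were at the reference level.

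Of the long noncoding RNA genes, 16 of 1378 were bright. The highest were Gm5833 (7.17), Gm1604a (7.08), F730043M19Rik (6.22), Oip5os1 (5.88), F630028O10Rik (5.41) and Zfas1 (5.30), and they were named after their values were seen. Gm5833 read 7.20, 7.13 and 7.18. Odf1 (7.02), Olfr692 (6.38) and Kdm5d (3.93) were each bright or middling on all 3 arrays while most or all other genes of its list lay at the reference level.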
